A study of Mus musculus with 4 samples.

Results

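Resident-type macrophages, cells chosen here for genes of tissue macrophages such as the mannose receptor Mrc1 and the haemoglobin scavenger receptor Cd163, were taken from a single-cell RNA survey of mouse retina and choroid. A cell (1 column of the deposited matrix) was a member when at least 3 of 7 leukocyte genes (Ptprc, Lyz2, Csf1r, Fcgr1, Adgre1, Cd68 and C1qa) had a UMI, at least 3 of 7 resident genes (Mrc1, Cd163, Lyve1, F13a1, Folr2, Pf4 and Cd209d) had one, and more resident genes than monocyte genes (Ly6c2, Ccr2, Ms4a4c, Plac8 and Chil3) were detected. Cells with 10 or more UMIs of Arg1, Spp1 and Gpnmb, the genes of the lesion macrophages, were left out. This chose 1117 of 36701 cells. All mice were wild type. The 4 groups were animals of 6 to 8 weeks without lesions (young control), animals of that age 3 days after laser photocoagulation that induces choroidal neovascularization (young CNV), animals over 18 months old without lesions (aged control) and such animals 3 days after laser (aged CNV). Each group is 1 library. How many animals each library holds is not given in the sources used here, so no spread between animals can be measured, no test was possible, and every interval below covers counting error only. Per the labels' protocols, retina depleted of rods with antibodies to CD73 was mixed with choroid and sclera before loading. Where a gene or class has 4 values, they run from young control through young CNV and aged control to aged CNV.

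Macrophages of this kind sit along vessels and in connective tissue, here the choroid and sclera, take up debris, haemoglobin and modified proteins through scavenger and lectin receptors, and turn over slowly compared with blood monocytes. In many tissues those with the hyaluronan receptor Lyve1 carry little MHC class II, the molecules that present peptides to CD4 T cells, while those without Lyve1 carry more of it. Laser photocoagulation breaks Bruch's membrane below the retinal pigment epithelium, and monocytes then enter and become macrophages of the lesion.

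The label was checked on the members' own UMIs. These values chose the members, so they are a description. Mrc1 was detected in 98.2% of all members, F13a1 in 92.4%, Pf4 in 89.7%, Folr2 in 78.8%, Cd163 in 70.3%, Lyve1 in 53.5% and Cd209d in 29.4%. Mrc1 stood at 2645, 1967, 2612 and 2809 CPM (counts of a gene scaled to the same total of member UMIs in each library), against 67.4, 189, 39.9 and 123 CPM over all cells of each library. Cd163 stood at 791, 602, 1063 and 832 CPM, and Lyve1 at 606, 251, 770.0 and 699 CPM. Cd209d, a C-type lectin of the DC-SIGN family, stood at 60.9, 62.9, 376 and 561 CPM, so the weight of this gene in the rule differed between the ages. Ccr2, the receptor that brings monocytes out of the marrow and a monocyte gene of the rule, was also found among members, in 18.0%, 48.8%, 39.0% and 28.5% of them (137, 408, 451 and 276 CPM), against 94.1%, 95.6%, 96.1% and 90.7% of the monocyte-type cells described below and at most 1.19% of rod-type cells, whose median depth was lower (1258 to 3037 UMIs). The 5 monocyte genes summed to 182, 588, 464 and 511 CPM in members. The rule thus holds cells with a monocyte receptor, in shares that differed between libraries. Apart from the MHC class II medians given by Ccr2 below, their part in the results was not tested. All 7 resident genes were detected in 13 of 122, 78 of 705, 19 of 41 and 107 of 249 members. Members just inside the rule, with exactly 3 resident genes, were 202 cells with a median of 16 resident UMIs, and 258 cells just outside, with 2, had a median of 5. All members had a median of 77. A further 61 cells with 3 or more resident genes fell outside by their monocyte genes and 159 by the lesion limit, while 98 members had 5 to 9 UMIs of Arg1, Spp1 and Gpnmb.

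The libraries held 11427, 10867, 6676 and 7731 cells and between 50848238 and 111908519 UMIs. Summed UMIs of the members came to 1346871, 9168795, 532449 and 2521598, with medians per member of 9173, 11323, 12924 and 9124. The aged control values therefore rest on 41 cells. A doublet caller (Scrublet) gave a score of 0.2 or more to 4, 48, 2 and 10 members, which were kept. Of all barcodes 0.339% occurred in 2 or more libraries, none of them as a member in more than 1. RNA of other cells was present among the members' UMIs and differed between libraries. Transthyretin (Ttr) of the pigment epithelium stood at 303, 101, 2385 and 166 CPM in members, and collagen Col1a1 at 38.6, 646, 3.76 and 123 CPM. Summed over whole marker lists, the 7 rod genes lay between 155 CPM (aged CNV) and 1654 CPM (young control), the 6 pigment epithelium genes between 140.3 (young CNV) and 3249 (aged control), and the 6 fibroblast genes between 31.9 (aged control) and 3154 (young CNV). The 5 T cell genes reached at most 15.9 CPM. The 5 neutrophil genes reached 113 CPM in aged CNV and at most 1.85 elsewhere. Mast cell genes reached 147 CPM in young CNV and at most 2.78 elsewhere. Of the microglial genes, P2ry12 was found in 52.5%, 50.9%, 56.1% and 52.6% of members, but Tmem119, which defines microglia among retinal macrophages, stood at no more than 11.3 CPM, and few members (12, 69, 6 and 16) had 3 or more of the 6 microglial genes. Where a gene counted as higher in a library stood in members there under its level over all cells, this is said beside it, because free RNA can then supply it.

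The share of cells that were members was about 6 times as high after laser in the young and about 5 times as high in the aged. It was 1.07% (exact 95% interval 0.887 to 1.27) in young control, 6.49% (6.03 to 6.97) in young CNV, 0.614% (0.441 to 0.832) in aged control and 3.22% (2.84 to 3.64) in aged CNV. The ratio after laser was 6.08 (5.01 to 7.43) in the young and 5.24 (3.76 to 7.49) in the aged. Aged over young, the ratio was 0.575 (0.394 to 0.826) without lesions and 0.496 (0.428 to 0.574) after laser. Among the cells that passed the leukocyte gate the picture differed: members were 35.5%, 31.5%, 11.7% and 24.4% of them. On that base the ratio after laser was 0.887 (0.731 to 1.08) in the young, whose interval includes 1, and 2.08 (1.49 to 2.97) in the aged. Monocyte-type cells, gated cells with at least 3 monocyte genes and more of those than of resident genes, were 4.94%, 6.11%, 21.7% and 13.7% of gated cells. A share of cells depends on what else was recovered from the mixed tissue, and more members and fewer other cells cannot be told apart.

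**Figure D1:**
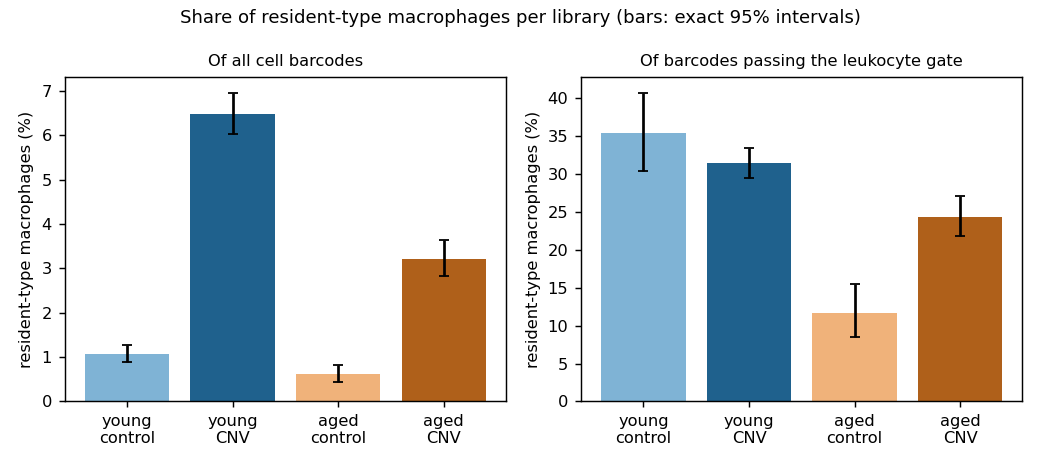
Share of resident-type macrophages per library, of all cells and of cells passing the leukocyte gate (%), with exact 95% intervals. Both laser libraries stand above their controls over all cells (6.49% against 1.07% and 3.22% against 0.614%), whereas over gated cells young control and young CNV have overlapping intervals (35.5% and 31.5%).

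Members differed from the other myeloid cells of the same libraries in genes outside the rule. Both sides of these comparisons were chosen from their own UMIs, so the values describe the classes and test nothing. Ficolin A (Fcna), a soluble lectin that starts complement, stood at 193, 157, 300.5 and 914 CPM in members and at 0, 0.544, 1.09 and 4.01 CPM in monocyte-type cells. Cd209f stood at 317, 245, 406 and 407 CPM in members and at no more than 1.63 CPM in monocyte-type cells. The complement receptor Vsig4 (40.1, 27.6, 152 and 219 CPM in members) was at or below 0.669 CPM there. Monocyte-type cells were higher for Hp, haptoglobin (443, 82.2, 430.0 and 255 CPM against at most 9.52 in members). Over the 3 libraries with at least 20 cells in both classes, 319 of 8273 genes (3.86%) were at least 2-fold higher in members in every one and 195 (2.36%) lower.

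Against lesion-type cells (gated, with 10 or more UMIs of Arg1, Spp1 and Gpnmb), 345 of 7931 genes (4.35%) were higher in members in each of 3 libraries and 207 (2.61%) lower. The galactose lectin Mgl2 stood at 530.1, 309, 475 and 186 CPM in members and at 0, 3.86, 5.79 and 1.47 CPM in lesion-type cells. Retnla, a secreted protein of alternatively activated macrophages, stood at 2675, 4023, 6686 and 2435 CPM in members and at 2.04, 161, 0 and 28.3 CPM in lesion-type cells. The lipid chaperone Fabp5 was the reverse, at 117, 149, 41.3 and 164 CPM in members and at 981, 3169, 3671 and 5137 CPM in lesion-type cells. Against microglia-type cells (gated, at least 3 of 6 microglial genes, outside the other classes), 357 of 8330 genes (4.29%) were higher in members and 305 (3.66%) lower, with Retnla at no more than 27.4 CPM in them.

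**Figure D2:**
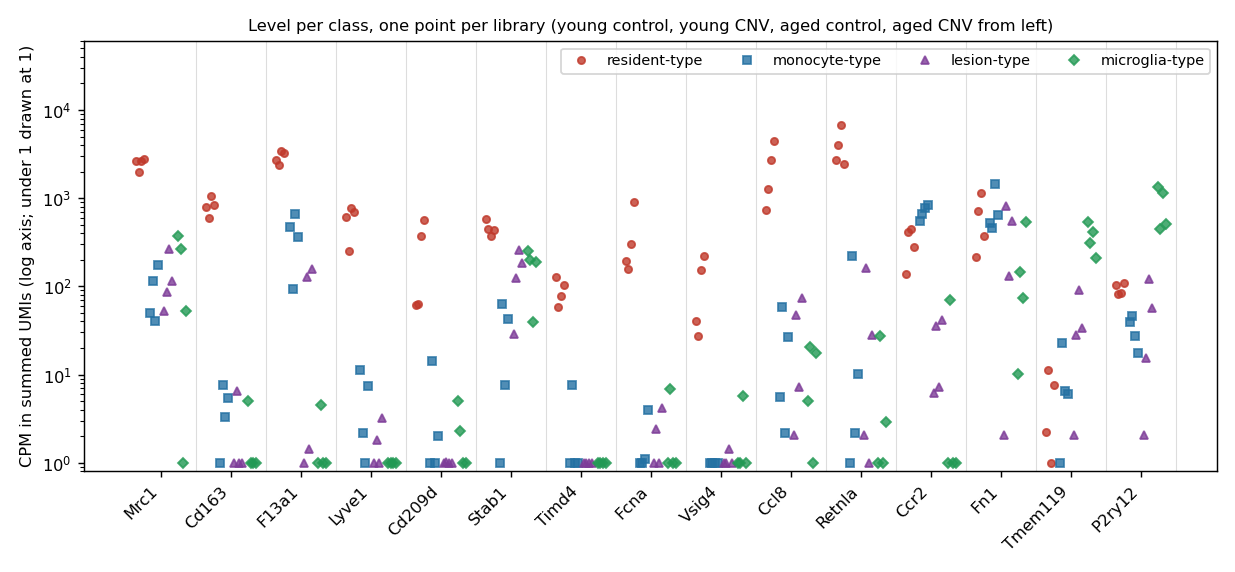
CPM of selected genes (log axis) in the members and in other myeloid classes, 1 point per library, young before aged and control before CNV. Fcna and Vsig4 are at or below 4.18 CPM in all 4 libraries of monocyte-type and lesion-type cells.

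Within the members, Lyve1 separated cells of different content in every library. It was detected in 77, 313, 29 and 179 members. In each of the 4 libraries 74 of 4810 genes (1.54%) were at least 2-fold higher in members with Lyve1 and 31 (0.644%) lower. The higher ones included the complement component C6, Vsig4, the phosphatidylserine receptor Timd4, Fcna, Cd209b, the endothelin receptor Ednrb and the chemokine Ccl8. Vsig4 stood at 63.3, 59.6, 234 and 299 CPM with Lyve1 and at 1.96, 5.36, 5.24 and 12.8 CPM without. Ccl8 stood at 1078, 2464, 3911 and 5869 CPM with and at 147, 446, 571 and 885 CPM without. Members without Lyve1 were higher for Lyz1 (819, 694, 2850.2 and 953 CPM against 57.3, 72.7, 90.8 and 41.2), for Fn1, fibronectin (554, 1117, 3206 and 1105 CPM against 8.36, 140.0, 0 and 95.1), and for Cd52, a small surface glycoprotein of leukocytes (864, 1175, 979.8 and 906 CPM against 64.5, 242, 79.0 and 186). The 2 sides had similar depth in young control (median 9179 UMIs with and 9162 without) and differed most in aged control (10664 and 15890).

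MHC class II varied among members and between libraries. The summed level of H2-Aa, H2-Ab1, H2-Eb1 and Cd74, the chains of class II and its invariant chain, was computed for each member. Its median was 16841, 14581, 9088 and 2010 CPM. Among members with Lyve1 the medians were 16124, 8368, 3239 and 1345 CPM, and among members without Lyve1 they were 22108, 23847, 18199 and 9526 CPM. Within every library the members with Lyve1 thus had the lower median, and within both kinds aged CNV had the lowest median of the 4 libraries. Members with a UMI of Ccr2 had medians of 35123, 28361, 18410 and 13158 CPM, and those without had 7448, 3843, 755 and 993 CPM. Among members without Ccr2 the lowest median was thus in aged control, not in aged CNV.

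**Figure D3:**
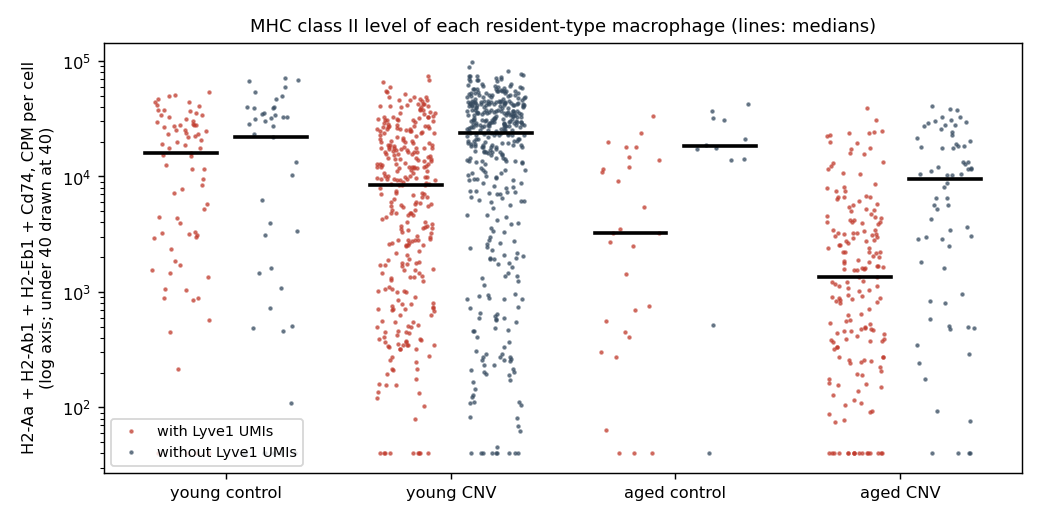
Summed MHC class II level of each member (CPM, log axis) by library, split by Lyve1 detection, with lines at the medians. Members with Lyve1 lie lower than members without in every library (medians 1345 and 9526 CPM in aged CNV). Aged CNV has the lowest median on both sides of this split.

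The 4 contrasts were laser in the young, laser in the aged, age without lesions and age after laser. The 2 laser contrasts share no library with each other, nor do the 2 age contrasts, but each laser contrast shares a library with each age contrast. A gene counts as higher or lower when its CPM in the summed members differed at least 2-fold, the exact 95% interval of the ratio excluded 1, and the 2 libraries held at least 20 UMIs of it. Of 13362 genes measured for laser in the young, 605 (4.53%) were higher and 848 (6.35%) lower in young CNV, and of 10685 for laser in the aged, 674 (6.31%) were higher and 679 (6.35%) lower in aged CNV. For age without lesions 786 of 9296 (8.46%) were higher and 690 (7.42%) lower in aged control. For age after laser 1098 of 13703 (8.01%) were higher and 758 (5.53%) lower in aged CNV. Of these genes, 123 of the 605 and 227 of the 848, 273 and 227, 325 and 273, and 337 and 195 stood in members at or above their level over all cells. The split by direction depends on scaling: with TMM factors it was 738 and 699, 875 and 537, 580 and 926, and 808 and 1063. The median log2 ratio of all genes was -0.07, -0.03, 0.10 and 0.14, and TMM moved it by 0.14, 0.14, -0.18 and -0.18.

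Resident receptors and lectins outside the rule that passed 2-fold were higher with age in both age contrasts, went both ways after laser in the aged, and numbered 1, lower, after laser in the young. Of 21 genes of the resident list measured, 0 were higher and 1 lower for laser in the young (median log2 -0.33), 4 and 2 for laser in the aged (0.38), 3 and 0 for age without lesions (0.09), and 6 and 0 for age after laser (0.81). Timd4, at 128, 59.0, 77.0 and 104 CPM, was the one lower after laser in the young, 2.18-fold (1.82 to 2.59). In young control and young CNV it stood at 198 and 135 CPM in members with Lyve1, a difference under 2-fold. In those without Lyve1 it stood at 13.7 and 6.10 CPM. Lyve1 was detected in 63.1% and 44.4% of members of these libraries, and the part of this in the Timd4 difference was not tested. Fcna was 3.04-fold (2.59 to 3.59) higher after laser in the aged and 5.83-fold (5.45 to 6.23) higher in aged than in young CNV. Vsig4 was 3.79-fold (2.66 to 5.46) higher in aged than in young controls and 7.95-fold (6.84 to 9.26) higher after laser, so its levels in both aged libraries lay above both young ones. Cd209b stood at 60.1, 34.2, 122 and 293 CPM and Ednrb at 445, 354, 701 and 970.4 CPM. Members with Lyve1 alone had Vsig4 at 63.3 and 59.6 CPM in the young and 234 and 299 CPM in the aged libraries, so the difference by age was present within them too. Cd209 genes are close copies of each other, and how reads that match several were counted is not given in the sources used here.

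Most antigen presentation genes, a list of MHC class II and co-stimulation, were lower in the aged laser library. None of 12 was higher or lower for laser in the young (median log2 0.10). For laser in the aged 0 of 11 were higher and 5 lower (-0.90), for age without lesions 0 and 2 (-0.64), and for age after laser 0 of 12 higher and 7 lower (-1.62). The 3 ratios above 1 for laser in the aged were of co-stimulation genes, none past 2-fold. They were Cd40 (1.76-fold), Cd80 (1.61-fold) and Cd86 (1.25-fold). H2-Aa stood at 4347, 4611, 2504 and 1134 CPM and was 2.21-fold (2.07 to 2.36) lower after laser in the aged and 4.07-fold (3.92 to 4.23) lower in aged than in young CNV. Cd74 stood at 8376, 8488, 5144 and 2548 CPM. H2-DMa, which loads peptide onto class II, stood at 368, 431, 201 and 107 CPM, and Ciita, the transactivator of class II genes, at 64.6, 79.9, 120.2 and 45.2 CPM. Ciita was thus highest in aged control, where H2-Aa was not. In members with Lyve1 alone H2-Aa was 4.54-fold (4.28 to 4.82) lower in aged than in young CNV. Over all cells, members included, H2-Aa stood at 226, 769, 106 and 185 CPM, well under the members. In rod-type cells it stood at 19.1, 79.0, 28.7 and 24.9 CPM.

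Chemokine genes differed by age in both directions. For age without lesions 1 of 14 was higher and 7 lower (median log2 -1.08), and for age after laser 3 of 17 were higher and 5 lower (-0.60). For laser the counts were 2 of 17 higher and 0 lower in the young (-0.16) and 4 of 15 and 0 in the aged (0.49). Ccl8, a ligand that draws monocytes and lymphocytes, stood at 726, 1273, 2714 and 4479 CPM and was 3.74-fold (3.44 to 4.06) higher in aged than in young controls. Ccl6 stood at 1294, 1659, 2562 and 3436 CPM, in the same order of libraries. The opposite held for Ccl2, the ligand of Ccr2, at 1142, 998, 308 and 358 CPM, 3.71-fold (3.15 to 4.38) lower in aged than in young controls. Ccl3 stood at 311, 278, 22.5 and 122 CPM and Ccl4 at 607, 526, 109 and 153 CPM. Young libraries thus held the higher level of Ccl2, Ccl3 and Ccl4 and aged libraries that of Ccl6 and Ccl8.

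Cxcl13, the chemokine that attracts B cells, had the largest ratio with age after laser. It had 0, 29, 16 and 3215 UMIs in members, or 0, 3.16, 30.0 and 1275 CPM, and was 403-fold (280.1 to 603) higher in aged than in young CNV and 42.4-fold (26.1 to 74.3) higher than in aged control. In aged CNV 114 of 249 members (45.8%, 39.5 to 52.2) had a UMI of it, against 1 of 30 rod-type cells, which lack the gene (median 9124 and 1258 UMIs per cell). Thinned to 1000 UMIs per cell, 30.8% of members did. The members held 47.5% of the library's 6772 Cxcl13 UMIs. Fibroblast-type cells stood at 190 CPM, lesion-type cells at 19.7 CPM and monocyte-type cells at 2.67 CPM. The 10 members with most Cxcl13 held 45.6% of the members' UMIs, the highest of them 239 UMIs. Against the other members of aged CNV, those with Cxcl13 were higher for Vsig4 (371 and 90.3 CPM), Cd209b (465 and 148 CPM) and Lyve1 (971 and 467 CPM) and lower for H2-Aa (521 and 1655 CPM) and Ccr2 (86.3 and 438 CPM). Pi16, a gene of adventitial fibroblasts, was higher in them as well (63.0 and 3.67 CPM), while the 6 fibroblast marker genes summed to 920.4 and 954 CPM. The 5 T cell genes summed to 32.8 and 1.47 CPM and the 5 neutrophil genes to 218 and 22.8 CPM, and the part of such RNA in the difference was not tested.

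Saa3, an acute-phase serum amyloid, was found in the same library, at 0, 8.18, 0 and 593 CPM and in 0, 22, 0 and 86 members. With 3 counts put in place of its 0 UMIs in aged control, it was 105-fold higher in aged CNV. The exact interval of that ratio starts at 85.5 and has no upper end. Saa3 was 72.5-fold (57.5 to 92.7) higher in aged than in young CNV. Other classes of aged CNV held less of it, 92.9 CPM in monocyte-type, 62.4 CPM in lesion-type and 51.0 CPM in fibroblast-type cells. One member held 17.7% of the Saa3 UMIs of the aged CNV members. Saa3 stood at 1112 CPM in members with Cxcl13 and at 151 CPM in those without. S100a9, a neutrophil protein, also differed between them (113 and 10.3 CPM), and its part in the Saa3 result was not tested.

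**Figure D4:**
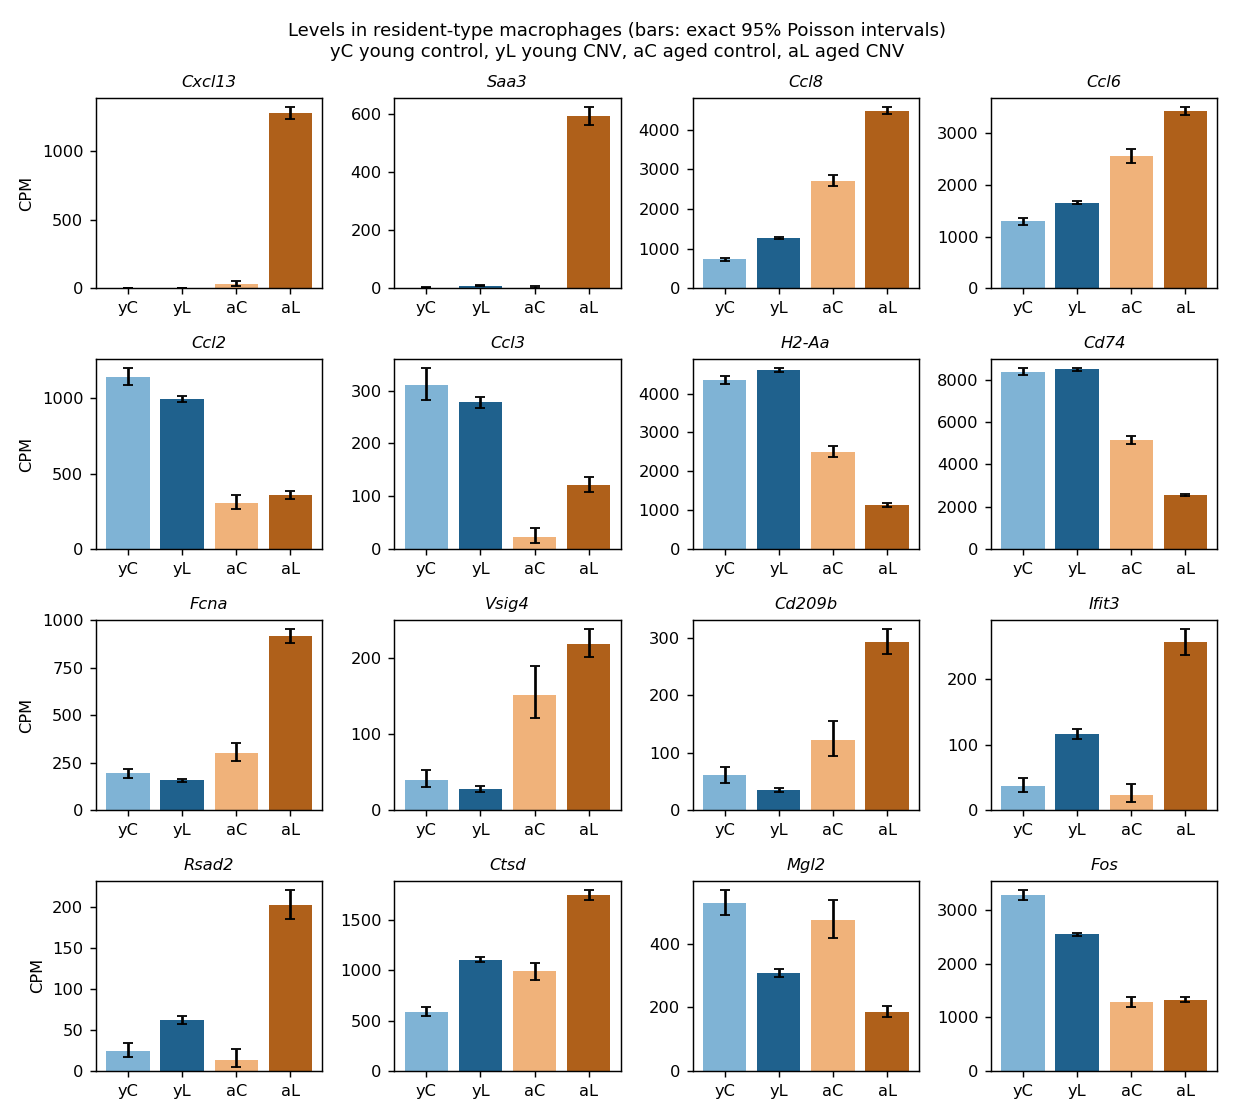
CPM of selected genes in the members of each library with exact 95% Poisson intervals. Cxcl13 (1275 CPM) and Saa3 (593 CPM) are high in aged CNV, Ccl8 is higher in the aged libraries, and Ccl2 and H2-Aa are higher in the young ones.

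Interferon-stimulated genes were higher after laser at both ages. Of 19 measured, 10 were higher and 0 lower in the young (median log2 1.06) and 14 were higher and 0 lower in the aged (1.91), with 9 of them among both. Ifit3 stood at 37.1, 116, 22.5 and 257 CPM, 3.13-fold (2.36 to 4.25) higher in the young and 11.4-fold (6.47 to 22.1) in the aged. Rsad2, viperin, stood at 24.5, 61.8, 13.1 and 203 CPM, 2.52-fold (1.78 to 3.70) and 15.4-fold (7.43 to 38.5) higher. The aged control values rest on 12 UMIs of Ifit3 and 7 of Rsad2. Irf7, the transcription factor of the interferon response, stood at 53.5, 156, 47.0 and 176 CPM, and the membrane tether Bst2 at 278, 596, 156 and 468 CPM. Young control and aged control were the lower pair for each of these 4 genes. Isg15, Ifit1 and Ifi44 stood in young CNV members under their level over all cells. In the young 4 of the 19 stood lower in young CNV, none past the threshold: Gbp4, Iigp1, Gbp5 and the transcription factor Irf1, the last at 507, 319, 203 and 340.3 CPM. The rise was not limited to members. Summed over the list, members stood at 4122, 6174, 2481 and 6535 CPM, and all cells of the libraries at 2129, 3904, 932 and 2659 CPM. Aged over young, 0 of 17 were higher and 2 lower without lesions (-0.74), and 6 of 19 were higher and 0 lower after laser (0.53).

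Because these genes were higher together, their promoters were read for the interferon response motif, searched as GAAA, any 2 bases and GAAA again on both strands (which reads TTTC, any 2 bases and TTTC on the other). RefSeq promoters of GRCm38.p6, from 250 bases before to 50 after each start, were given for 14 of the 20 listed genes, and 8 of them held the motif (57.1%), among them 5 of the 8 with a promoter that were higher after laser at both ages. Of all 27025 genes with a promoter 3.99% held it in at least 1 window, and of their 32851 windows 3.44% did. Neither window of Ifit2 held it. The 250 bases before the start of Rsad2 (chr12:26456453-26456702, minus strand) held 1 match and those of Ifit3 (chr19:34583279-34583528, plus strand) held 2, in capitals, 120 bases before the start in Rsad2 and 156 and 122 bases before it in Ifit3. A match describes the letters and is no evidence of binding.
Rsad2: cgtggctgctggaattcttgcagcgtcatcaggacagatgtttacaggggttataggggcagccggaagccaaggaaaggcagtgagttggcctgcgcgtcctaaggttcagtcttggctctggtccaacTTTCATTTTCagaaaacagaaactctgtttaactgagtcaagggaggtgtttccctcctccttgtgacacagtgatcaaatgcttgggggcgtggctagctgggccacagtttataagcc
Ifit3: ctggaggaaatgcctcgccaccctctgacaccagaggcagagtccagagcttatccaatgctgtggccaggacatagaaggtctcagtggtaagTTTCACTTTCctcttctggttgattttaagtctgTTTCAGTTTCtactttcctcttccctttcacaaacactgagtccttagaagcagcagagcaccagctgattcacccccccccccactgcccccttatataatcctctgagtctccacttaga

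Lipid and lysosome genes were mostly higher after laser, by less than 2-fold for most. Of 18 measured, 3 were higher and 0 lower in the young (median log2 0.39), and 6 were higher and 1 lower in the aged (0.73). By age the counts were 2 of 16 higher and 2 lower without lesions (0.01) and 0 of 18 higher and 1 lower after laser (0.16). The lysosomal protease cathepsin D (Ctsd) stood at 590.3, 1106, 989.8 and 1747 CPM and cathepsin B (Ctsb) at 1977, 2550.2, 2637 and 3888 CPM, neither past 2-fold. Trem2, a lipid receptor, stood at 123, 217, 103 and 246 CPM and was 2.38-fold (1.80 to 3.20) higher after laser in the aged. Lipoprotein lipase (Lpl) was the one lower, at 189, 244, 522 and 140.4 CPM. Its aged control UMIs came from 9 members. Fabp4, higher after laser at both ages, stood in members far under its level over all cells (107 against 425 CPM in young CNV). Haem oxygenase Hmox1, of the iron and haem list, stood at 209, 271, 282 and 495 CPM. Of the 14 genes of that list 1 was higher and 4 lower for laser in the aged, and at most 1 passed in either direction in each other contrast.

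Immediate-early and heat-shock genes were lower in aged members without lesions. Cells switch such genes on within minutes of a stimulus, and tissue dissociation is known to raise them. Of 16 measured, 0 were higher and 12 lower (median log2 -1.25). The counts were 0 and 3 for age after laser (-0.48), 0 and 2 for laser in the young (-0.43), and 1 and 0 for laser in the aged (0.24). Fos stood at 3285, 2551, 1285 and 1329 CPM and Zfp36, which shortens the life of cytokine mRNAs, at 1669, 1266, 398 and 398 CPM. Both aged libraries thus lay under both young ones. The same order of ages was seen over all cells, with Fos at 2651, 2009, 712 and 736 CPM, so it was not limited to members. The part of tissue dissociation in this difference was not tested. Hspa1b stood at 123, 51.9, 1.88 and 17.8 CPM, the aged control value resting on 1 UMI, and its near-identical copy Hspa1a at 281, 134, 62.0 and 59.1 CPM.

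Proliferation genes were scarce. Mki67 was detected in 9, 74, 2 and 24 members (7.38%, 10.5%, 4.88% and 9.64%), against none, 0.911%, none and none of rod-type cells. Of 11 cell cycle genes measured for laser in the aged, 7 were higher and 0 lower (median log2 1.63). For laser in the young 1 of 16 was higher and 0 lower (0.27), for age without lesions 0 of 8 were higher and 6 lower (-1.61), and for age after laser 0 of 16 and 6 (-0.73). The aged control held 4 UMIs of Mki67 and 0 of Top2a in its 41 members, and Mki67 and Top2a stood in aged CNV members under their level over all cells, so these ratios rest on few counts.

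Genes of alternative activation and inflammation that passed 2-fold differed in direction between contrasts. Retnla was 2.75-fold (2.63 to 2.86) lower after laser in the aged and 2.50-fold (2.39 to 2.62) higher in aged than in young controls, and was detected in 51, 422, 25 and 130 members. Both ratios use the aged control library. In members with Lyve1 alone they were 1.90-fold (1.77 to 2.05) lower and 1.92-fold (1.76 to 2.08) higher, so neither passed 2-fold. Mgl2 was 2.56-fold (2.19 to 2.99) lower after laser in the aged. Hpgd, which breaks down prostaglandins, stood at 258, 184, 254 and 76.5 CPM, so it was lowest in aged CNV. Of 9 alternative activation genes 2 were higher and 0 lower for laser in the young (median log2 -0.31), and 1 and 4 in the aged (-0.38). By age 1 of 7 was higher and 1 lower without lesions (-0.16), and 2 of 10 and 1 after laser (-0.44). Of the inflammatory list 2 of 13 were higher and 1 lower for laser in the young (-0.05), 2 of 11 and 0 in the aged, where all 11 ratios were above 1 (0.66), 1 of 10 and 2 for age without lesions (-0.62) and 0 of 13 and 1 for age after laser (0.16). The anti-inflammatory cytokine Il10 stood at 21.5, 59.9, 58.2 and 71.8 CPM, 2.78-fold (1.91 to 4.19) higher after laser in the young. Il1b stood at 75.7, 74.2, 50.7 and 90.4 CPM with no contrast past 2-fold.

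Several genes of vessel growth and matrix remodelling stood in members under their level over all cells. Of 21 measured for laser in the young 6 were higher and 3 lower (median log2 0.21), and of 19 in the aged 3 and 0 (0.44). By age 3 of 19 were higher and 3 lower without lesions (0.18), and 2 of 21 and 4 after laser (0.02). Vegfa, the main vessel growth factor, stood at 11.1, 10.0, 20.7 and 18.6 CPM in members against 60.3, 38.1, 78.8 and 51.5 CPM over all cells. Timp1, Mmp14 and Hbegf lay under the level over all cells in every library as well. Mmp9, a gelatinase, was the other way, at 57.9, 52.5, 158 and 89.2 CPM in members against at most 15.3 CPM over all cells, and was 2.72-fold (1.98 to 3.76) higher in aged than in young controls.

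Complement genes gave few differences past 2-fold. Of 14 measured 2 were higher and 0 lower for laser in the young (median log2 0.05), 2 of 13 and 0 for laser in the aged (0.53), 1 of 13 and 1 for age without lesions (-0.36), and 2 of 14 and 1 for age after laser (0.35). C1qb, a chain of C1q, stood at 3416, 3786, 2596 and 3877 CPM. C4b stood at 498, 309, 578 and 746 CPM, 2.41-fold (2.27 to 2.56) higher in aged than in young CNV. C3 was higher after laser at both ages but stood in members under its level over all cells (62.3 against 195 CPM in young CNV). Of the genes of recent monocyte origin 4 of 14 were higher and 0 lower for laser in the young (0.62), 1 of 13 and 2 for laser in the aged (0.05), 5 of 11 and 2 for age without lesions (0.57), and 3 of 15 and 2 for age after laser (-0.01). Lists of clearance receptors, growth factor receptors, transcription factors and glycolysis had at most 2 genes past the threshold in either direction in each contrast.

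**Figure D5:**
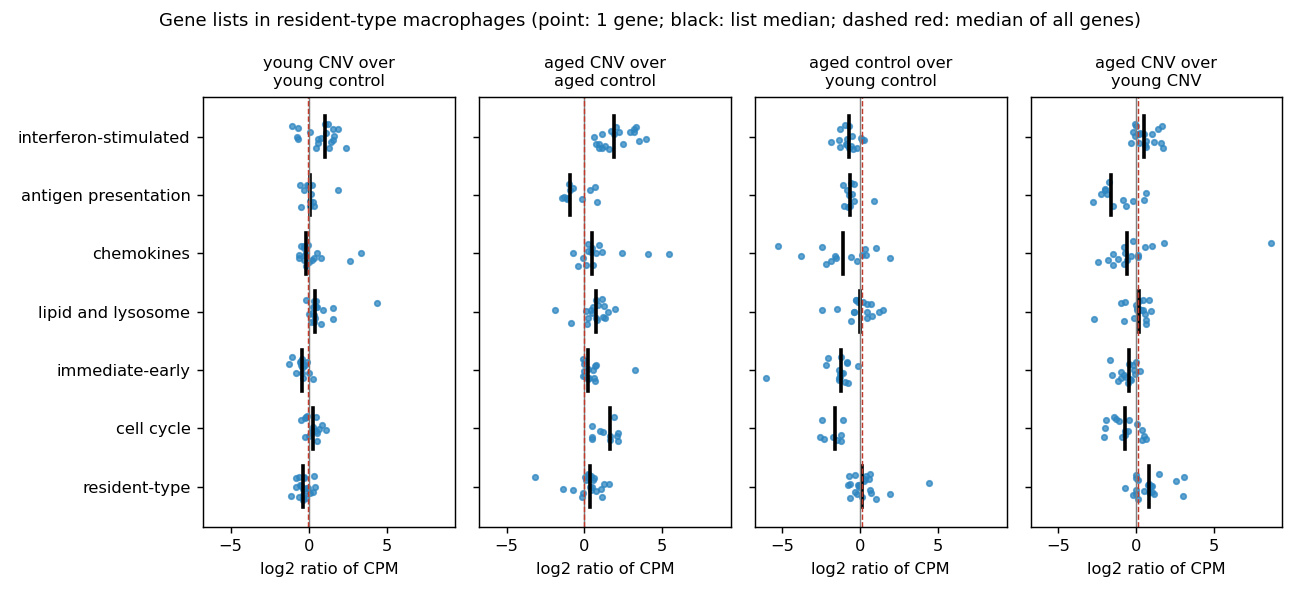
Log2 ratio of member CPM for each gene (points) of the fixed lists in the 4 contrasts, with the list median (black) and the median of all genes (dashed red). Interferon genes lie to the right in both laser contrasts (medians 1.06 and 1.91), and antigen presentation genes lie to the left in the contrast of age after laser (-1.62).

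Among the genes whose interval lay farthest from a ratio of 1, several were carried by few members. For laser in the young they included Plcb1, a phospholipase, at 3.71, 72.5, 192 and 63.5 CPM and detected in 2, 107, 5 and 35 members. Dcstamp, needed for macrophage fusion, stood at 0, 8.40, 5.63 and 14.7 CPM and was found in 25 young CNV members. Keratin 17 (Krt17), lower after laser in the young (284 and 7.74 CPM), came from 5 members of young control. The 8 other genes named by the rule in this contrast, besides Saa3, stood at no more than 40.1 CPM in either library.

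For laser in the aged the named genes were, besides Saa3, Cxcl13, Rsad2 and Ifit3, Ifit2 (20.7 to 205 CPM) and Jaml, a junction adhesion molecule of leukocytes, at 5.94, 17.9, 15.0 and 148 CPM. The lower ones were Aldh1a2, which makes retinoic acid (17.1, 25.4, 62.0 and 7.14 CPM), Cd226, an adhesion receptor (163 CPM in aged control and at most 51.7 CPM elsewhere), Pde3b (145, 77.5, 314 and 66.2 CPM), Lyz1 (345, 439.6, 1080 and 295 CPM), Lpl and Aqp9. Each of these 6 was highest in aged control. There Pde3b was found in 35 members, Lyz1 in 15, Cd226 in 10, Aldh1a2 and Lpl in 9 each and Aqp9 in 7. For Lyz1, 1 of those members held a share of 0.426 of the UMIs. For age without lesions the higher ones were St3gal5, Fgr, Fn1, Dpyd, Ccl8 and Cd226. In aged control Ccl8 was found in 29 members, St3gal5 in 12, Dpyd and Cd226 in 10 each and Fgr in 7. Fibronectin Fn1, at 215, 717, 1149 and 377 CPM, came from 5 members of aged control, 1 of which held 34.5% of its UMIs. The lower ones were Krt17, Hspa1b, Ccl3, Ccl4, Top2a and Osgin1, the last at 35.6, 10.6, 0 and 23.4 CPM.

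For age after laser the higher named genes were Cxcl13, Saa3, Dpyd, Cd209e, Csprs and Cd209b. Dpyd, which breaks down pyrimidines, stood at 15.6, 12.2, 101 and 179 CPM and was 14.7-fold (11.9 to 18.2) higher in aged than in young CNV, with UMIs in 113 of 249 against 38 of 705 members. Cd209e stood at 0, 1.31, 18.8 and 23.4 CPM. Both genes were higher in both aged libraries than in both young ones. The lower named genes were Upb1 (30.4 and 0.397 CPM in young and aged CNV), Hepacam2 (14.0 and 0.397), H2-DMb2 (19.6 and 1.19), H2-Ab1 (3735 and 773), the leukotriene receptor Ltb4r1 (29.8 and 3.57) and Spink2 (9.71 and 0.397).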

How the data were processed

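Mouse retina and choroid of 4 groups were profiled cell by cell with 10x Genomics droplets, 1 library per group. The authors deposited raw UMI counts in 1 matrix of 24783 genes and 36701 columns of cells. Cell Ranger and Seurat 4.1.1 on mm10 are named in the submitters' processing notes, while the sources used here give no Cell Ranger version and no annotation. Column prefixes gave the library, with the prefix e read as aged because the only other one was y for young, and left 0 columns unmapped. The columns had at least 500 UMIs, and no cell was removed here. The members, gene lists and rules were chosen with earlier results of these data known, as were the alternatives, and the members with Lyve1 alone were added after seeing the data.

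UMIs were summed over members per library and divided by the members' total to give CPM, with exact 95% Poisson intervals. Ratios carry exact conditional binomial intervals and shares exact Clopper-Pearson intervals, all for counting error only. Against 0 UMIs a fold was computed from 3 counts per library. The 6 genes on each side of a contrast whose interval bound nearest 1 was farthest from it, with UMIs in at least 5 members of the higher library and a level there at or above that over all cells, were named, beside genes of 17 lists, of which 3 genes were not in the matrix. Shares were also taken with each cell thinned to 1000 UMIs, for which 2, 3, 0 and 2 members were too shallow. Doublets were scored with Scrublet in scanpy 1.11.5 and kept. Tables used pandas 2.3.3, numpy 2.4.6 and Python 3.11.15, intervals scipy 1.17.1, figures matplotlib 3.10.9, and R 4.3.3 with edgeR 4.0.16 gave scaling factors only. The ratio step was tested on simulated data. Alternatives were other limits on resident and lesion genes, thinning, doublet removal, other denominators, scaling factors, no filter on low counts and means over members. Results for 2 genes are not reported here.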

Additional observations from a re-analysis of the deposited data

Results flagged for a closer look

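For 8 named or listed genes the ratio after laser went past 2-fold in opposite directions in young and in aged members. Over all genes measured, 10.9% passed 2-fold in either direction for laser in the young and 12.7% for laser in the aged. How many of all genes passed in opposite directions was not counted, so the 8 cannot be set against a share. The difference between the ages was not tested, since each group is 1 library. The log2 ratios in the young and in the aged were 2.69 and -2.83 for Aqp9, 2.17 and -1.24 for Fgr, 1.74 and -1.61 for Fn1, and 4.29 and -1.59 for Plcb1. They were -1.11 and 2.86 for Hbegf, -1.25 and 3.25 for Hspa1b, -1.75 and 2.05 for Osgin1, and -1.05 and 2.61 for Ptgs2. The aged control side rests on few cells or counts in each: 15 UMIs of Aqp9 in 7 members, 39 of Fgr in 7, 612 of Fn1 in 5, 102 of Plcb1 in 5, 2 of Hbegf, 1 of Hspa1b, 0 of Osgin1 and 1 of Ptgs2. Hbegf and Ptgs2 stood in members under their level over all cells in every library. So did Fn1 in young CNV (717 against 951 CPM) and Hspa1b in aged CNV (17.8 against 42.2 CPM), the libraries in which they were called higher after laser.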

How the results depend on the processing

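No paired analysis was possible because each group is 1 library, and no library could be left out for the same reason. The ratios of member share kept their direction under every alternative except 1: with gated cells as the denominator they were 0.887 (young laser, reversed), 2.08 (aged laser), 0.330 (age without lesions) and 0.775 (age after laser). Thinned to 1000 UMIs, the young laser ratio was 4.78 and that of age after laser 0.619. The shares themselves moved. In the order of the libraries they were 1.55%, 7.78%, 0.839% and 3.84% with 2 or more resident genes, 0.818%, 3.91%, 0.418% and 2.42% thinned, and 35.5%, 31.5%, 11.7% and 24.4% of gated cells. With 4 or more resident genes young control, young CNV and aged CNV had 0.884%, 5.20% and 2.77%, and with under 5 UMIs of Arg1, Spp1 and Gpnmb young CNV had 5.68%.

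Counts of genes past 2-fold, higher and lower, were with thinned members 104 and 203 (young laser), 79 and 79 (aged laser), 80 and 100 (age without lesions) and 354 and 246 (age after laser). Fewer UMIs were then measured. Genes higher with age without lesions were 1263 with no filter on low counts and 478 with 4 or more resident genes. Members with Lyve1 alone gave 496 lower genes for laser in the young and 447 higher for laser in the aged. Median-of-ratios scaling gave splits of 706 and 734, 771 and 593, 611 and 870, and 816 and 1040.

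Over all alternatives 522 list medians stayed inside the interval of the reported median, 15 moved outside it and 2 reversed. That interval comes from the ranked ratios of the list's genes. A median counted as reversed only where the interval excluded 0, so the 522 can include changes of sign. The median of the angiogenic list for laser in the aged reversed, to -0.26 thinned and -0.055 with 4 or more resident genes. For transcription factors it was 0.074 (young laser) and 0.39 (aged laser) with TMM, 0.045 and 0.34 with median-of-ratios, and 0.33 thinned (age without lesions). For early response genes with age without lesions it was -1.43 with TMM and -1.40 with median-of-ratios. For clearance receptors it was -0.12 with TMM and -0.19 with Lyve1 alone (age after laser) and -0.75 thinned (age without lesions), and for growth receptors -0.49 thinned. With 4 or more resident genes the cell cycle median for laser in the young was 0.77. With Lyve1 alone the medians were -0.026 for the resident list (young laser), -0.011 for early response (aged laser) and 0.56 for inflammatory genes (age after laser). The cause was not tested. Of named genes under all alternatives 971 ratios kept their call, 33 lost it by fold or by interval, 18 gained it and 0 reversed. Of the 971, 134 came from dropping the filter on low counts, which could not change the call of a gene already measured. The 41 members of aged control limit every contrast that uses them.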
